A study of Mus musculus with 52 samples.

Results

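The messenger RNAs of 10 genes of the integrated stress response were followed in gastrocnemius, the large calf muscle, of aged mice. They comprise the transcription factors Atf4, Atf5 and Ddit3, the pseudokinase Trib3, the amino acid enzymes Asns, Psat1 and Phgdh, and the effectors Chac1, Ppp1r15a and Eif4ebp1. They were chosen by symbol, as ATF4 itself and genes known to act with it or under it, and make up 10 of the 55487 genes in the deposited count table. All animals were male C57BL/6 mice of 22 to 24 months, and the 52 libraries of total RNA fall into 13 groups of 4. HU groups were taken during hindlimb unloading, when the hind legs bear no weight. RL7 and RL14 groups were unloaded and then reloaded for 7 or 14 d. Each of these stages had 4 drinks: both agents together (ML), metformin (M), leucine (L) or plain water (W). AMB_W mice were ambulatory, were never unloaded and drank plain water, so no group received a drug without unloading. Metformin, taken for type 2 diabetes, inhibits mitochondrial respiration, and leucine is an amino acid from food that activates mTORC1. Doses and the length of unloading are not given in the sources used here.

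In the integrated stress response, kinases that sense amino acid shortage, misfolded protein, viral RNA or lack of haem phosphorylate the initiation factor eIF2. General translation then falls while Atf4 mRNA is translated more efficiently, so that much of the control of ATF4 acts on its protein and does not show in its mRNA. ATF4 protein induces genes for amino acid supply, for the feedback that restores translation and, when stress persists, for growth arrest and cell death. In muscle, ATF4 is known as a factor that promotes atrophy during disuse and ageing. Protein levels and phosphorylated eIF2 were not measured.

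The libraries held 15605044 to 32492548 counts, and all 10 genes passed the filter on low counts that left 16668 genes for testing. All 7 muscle fibre markers, among them Ckm and Myh4, were detected in every library and summed to 69997 to 116971 CPM (counts scaled to library size by TMM). Some libraries stood apart. Alb, a liver transcript, exceeded 16 CPM in 12 of the 52 libraries. A 5.8S ribosomal RNA gene, which rRNA removal should deplete, differed strongly between groups, and RL7_M 4 held 524 summed CPM of 5 adipocyte markers, against at most 171 CPM in any other library. Among these markers Fabp4 was by far the highest, with a median of 76.5 CPM over all libraries. The medians of Adipoq, Plin1, Cidec and Lep were 3.12, 3.63, 2.43 and 0.653 CPM. The 5 slow-fibre markers summed to 3.13 to 1368 CPM. Libraries are named by group and by the replicate number of their title. In whole muscle, fewer cells of a type and less RNA per cell cannot be told apart.

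Per kilobase of exon, and averaged over all 52 libraries, Atf4 stood highest at 20.5 CPM per kb, followed by Chac1 at 18.2. Atf5 at 7.84 CPM per kb, Eif4ebp1 at 7.34 and Ppp1r15a at 4.92 lay in the middle, and Ddit3 reached 2.02. The amino acid enzymes and Trib3 were scarce: Phgdh averaged 0.443 CPM per kb, Asns 0.373, Psat1 0.252 and Trib3 0.239. Trib3 had between 2 and 27 counts in a library, whereas Atf4 had 649 to 1536, so the scarce genes carried larger errors. The median coefficient of variation within a group was 10.2% for Atf4 and 11.2% for Eif4ebp1, against 45.9% for Trib3 and 38.2% for Phgdh. On GRCm38, Atf4 (ENSMUSG00000042406) lies on chromosome 15 at 80255184 to 80257541. Eif4ebp1 (ENSMUSG00000031490) lies on chromosome 8 at 27260329 to 27276674, and Ppp1r15a (ENSMUSG00000040435) on chromosome 7 at 45522916 to 45526268. Exons of Ddit3 share 105 bases with a second gene of that symbol on the same strand, which had 0 counts over all 52 libraries, and 68 and 13 bases with Mars and Gm4189 on the opposite strand. Exons of Atf5 share 82 bases each with Il4i1 and Nup62, and those of Ppp1r15a 12 bases with Tulp2, all on the opposite strand. The strand setting of the counting is not given, so a few reads of these 3 genes may belong to a partner. Phgdh has 14 near-identical copies elsewhere in the genome (at least 95% identity over 150 bases or more), so its counts are less certain than those of the other 9 genes, for which none was found.

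ATF4 binds DNA with C/EBP proteins at composite elements, whose core was searched as TGATGNAA (reverse complement TTNCATCA) on both strands of RefSeq promoter windows of GRCm38.p6, from 250 bases before to 50 bases after each start site. The windows of Asns, Chac1 and Trib3 are shown because they are the 3 of the 9 listed genes with a match. Eif4ebp1 has no entry in the table. Capitals mark the match, and each sequence runs 5′ to 3′ on the strand of its gene. Asns encodes asparagine synthetase, and its match begins 23 bases before the start (chr6:7693160-7693459, minus strand). In Chac1 it begins 193 bases before the start (chr2:119350992-119351291, plus strand), and in Trib3 14 bases after it (chr2:152344011-152344310, minus strand).
Asns: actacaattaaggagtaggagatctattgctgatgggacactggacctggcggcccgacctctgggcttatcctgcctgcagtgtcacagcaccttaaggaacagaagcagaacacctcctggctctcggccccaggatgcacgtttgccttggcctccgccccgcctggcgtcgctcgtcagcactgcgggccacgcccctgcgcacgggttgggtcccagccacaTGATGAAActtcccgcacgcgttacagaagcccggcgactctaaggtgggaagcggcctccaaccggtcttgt
Chac1: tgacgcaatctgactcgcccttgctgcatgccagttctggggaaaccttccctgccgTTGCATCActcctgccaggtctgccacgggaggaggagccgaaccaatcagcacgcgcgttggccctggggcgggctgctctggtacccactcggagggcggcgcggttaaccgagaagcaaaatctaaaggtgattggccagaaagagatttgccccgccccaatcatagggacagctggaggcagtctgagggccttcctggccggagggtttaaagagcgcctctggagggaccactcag
Trib3: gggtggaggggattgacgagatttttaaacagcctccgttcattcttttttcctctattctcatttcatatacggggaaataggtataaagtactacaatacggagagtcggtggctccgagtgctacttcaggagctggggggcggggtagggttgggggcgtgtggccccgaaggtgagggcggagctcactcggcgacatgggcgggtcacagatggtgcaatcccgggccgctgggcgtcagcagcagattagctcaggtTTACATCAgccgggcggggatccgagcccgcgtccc

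Over all genes with a window, 1219 of 27025 (4.51%) held the motif. Among other ATF4 target lists it was found in 5 of 8 aminoacyl-tRNA synthetase genes (Aars, Gars, Iars, Tars and Yars), in 5 of 12 further targets (Atf3, Fgf21, Herpud1, Nupr1 and Vldlr) and in 2 of 5 amino acid transporters (Slc1a4 and Slc7a11). Lower shares were 2 of 9 genes of serine, one-carbon and proline metabolism (Got1 and Pycr1) and 1 of 11 for eIF2, its kinases and regulators (Eif2s3x). It was found in 0 of 9 genes of the ATF6 and XBP1 branches of the unfolded protein response. For eIF4E and its partners it was 0 of 3, and for slow-fibre markers 1 of 5. A match describes these letters only, and windows without one, such as those of Atf4, Ddit3 and Ppp1r15a, say nothing of sites elsewhere. None of the 3 genes with a match was called in any of the 30 comparisons or 9 interaction terms by edgeR at an adjusted p under 0.05, the threshold used for calls throughout.

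**Figure D1:**
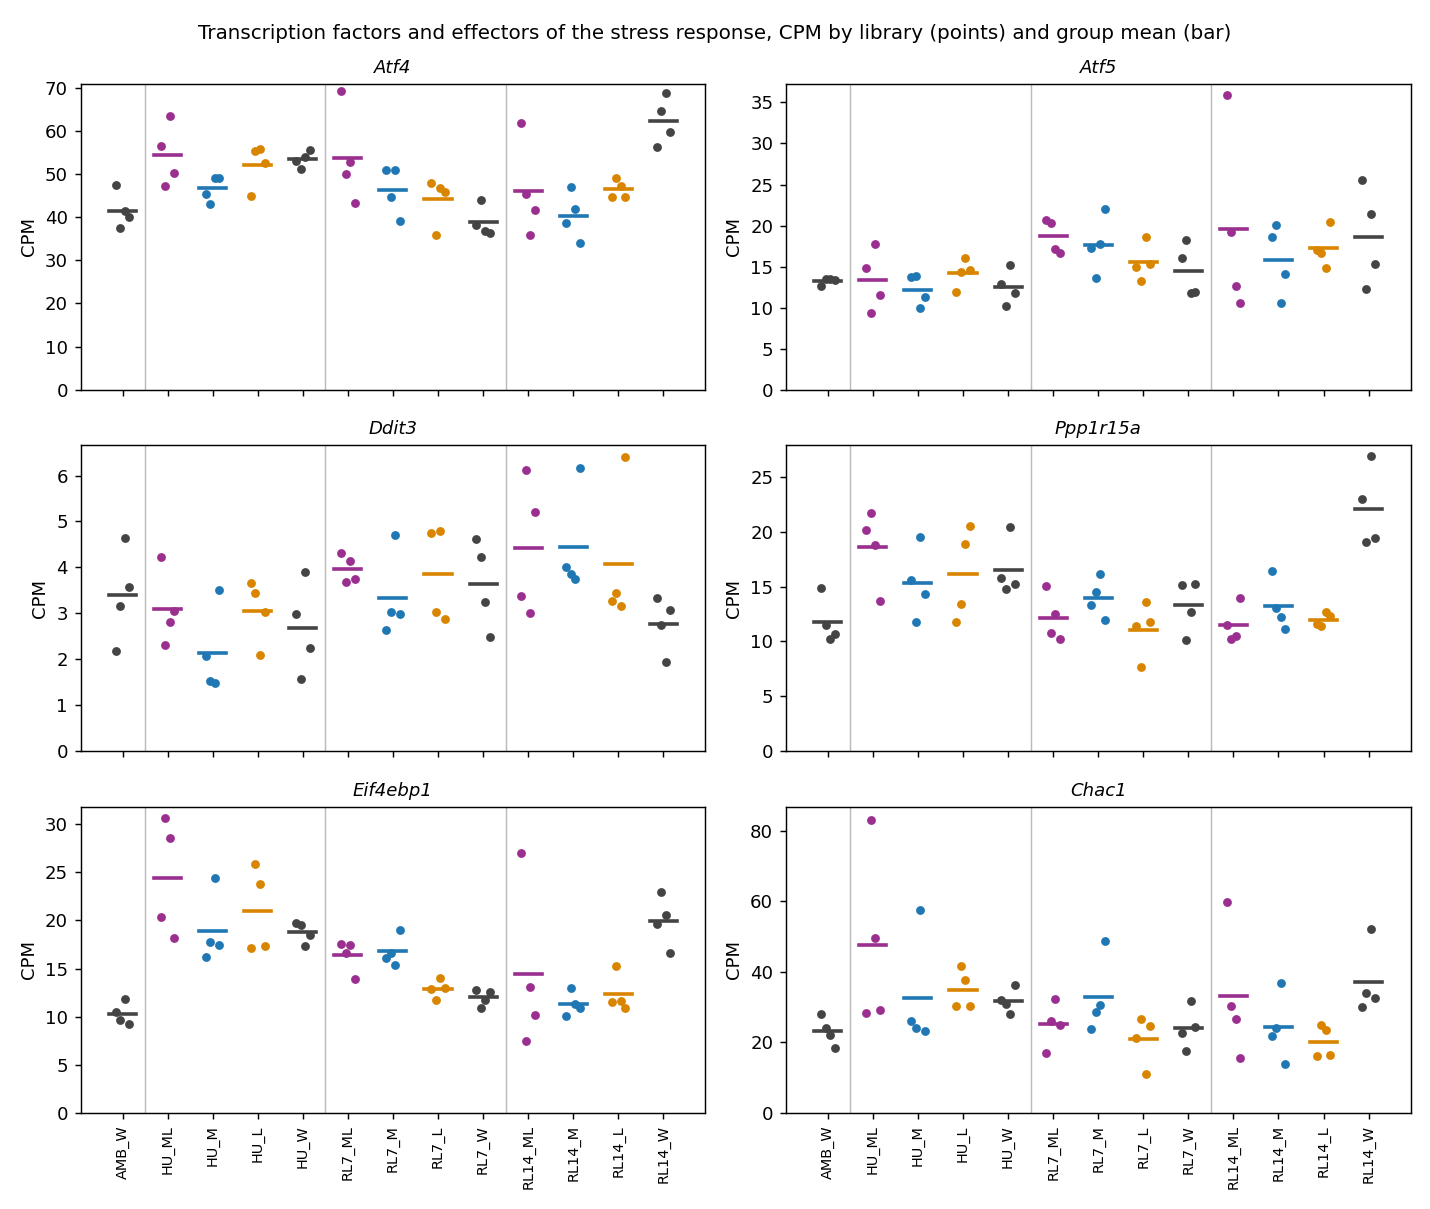
CPM (linear axis from 0) of the 3 transcription factors and 3 effectors in each of the 52 libraries (points) with group means (bars), by stage and drink (purple ML, blue M, orange L, grey W). Ppp1r15a and Eif4ebp1 stood highest among the reloaded groups in RL14_W, and Eif4ebp1 was above every AMB_W library in all 16 HU libraries.

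The first comparison asked what unloading did on plain water. Eif4ebp1 encodes 4E-BP1, which binds the cap-binding protein eIF4E and blocks cap-dependent translation until mTORC1 phosphorylates it. Its 4 HU_W libraries had 19.8, 19.6, 17.3 and 18.5 CPM, against 10.4, 9.61, 11.8 and 9.22 CPM in AMB_W. No library of one group fell in the range of the other, and the mean was 1.83-fold higher (log2 fold change 0.87 ± 0.21 SE, edgeR adjusted p = 0.00963). Eif4ebp1 was 1 of the 10 genes called, where 1.95% of all tested genes were called higher. The median log2 fold change of the 10 genes was 0.09, against -0.01 over all genes.

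The other 9 genes were not called during unloading on water. Atf4 had 53.2, 51.3, 54.1 and 55.7 CPM in HU_W, against 47.4, 37.4, 41.5 and 40 CPM in AMB_W. These ranges did not overlap either, but the difference of 0.36 ± 0.13 SE missed the threshold in edgeR (adjusted p = 0.136). Ppp1r15a, which encodes GADD34, the stress-induced subunit that returns protein phosphatase 1 to eIF2 and so restores translation, averaged 16.6 ± 2.61 CPM in HU_W and 11.8 ± 2.11 CPM in AMB_W (SD, n = 4; edgeR adjusted p = 0.158). Chac1, a glutathione-degrading enzyme induced late in the response, had 31.8, 30.7, 28 and 36.3 CPM in HU_W and 27.9, 23.9, 22.1 and 18.3 CPM in AMB_W (edgeR adjusted p = 0.612). These 3 genes, Eif4ebp1, Atf4 and Chac1, were those whose libraries did not overlap, and 6.88% of all tested genes were higher without overlap. Asns, Psat1 and Phgdh averaged 0.832, 0.762 and 0.596 CPM in HU_W and 0.86, 0.715 and 0.61 CPM in AMB_W.

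Eif4ebp1 also rose above AMB_W in each unloaded group that was given an agent. It had 20.4, 30.7, 28.6 and 18.2 CPM in HU_ML, the highest group mean of the gene in the series (24.5 ± 6.11 CPM). HU_L libraries had 17.2, 25.9, 23.8 and 17.3 CPM, and HU_M libraries 16.2, 17.7, 24.4 and 17.4 CPM. All 12 values lay above the highest AMB_W library, and 5.83%, 7.36% and 7.48% of all tested genes were higher without overlap in HU_ML, HU_L and HU_M. The log2 fold changes over AMB_W were 1.26 ± 0.21 SE in HU_ML (adjusted p = 0.000277), 1.03 ± 0.21 in HU_L (adjusted p = 0.00122) and 0.88 ± 0.21 in HU_M (adjusted p = 0.0071), all from edgeR. These comparisons share the 4 AMB_W libraries and are therefore not independent of one another or of HU_W. The background of genes called higher was 1.25% in HU_ML, 2.54% in HU_L and 2.47% in HU_M. The call in HU_M was lost without HU_M 3 (log2 fold change 0.73, adjusted p = 0.0701), while those in HU_ML and HU_L, and that in HU_W, passed without each single library in turn. Without the libraries over the Alb limit, 2 of them in HU_W, the HU_W call was lost (0.80, adjusted p = 0.178). Markers of red cells moved in the same comparisons: the 3 genes summed to 5.84 to 13.7 CPM in HU_ML, 11.5 to 17.4 CPM in HU_L, 15.7 to 160 CPM in HU_M and 24.3 to 55.1 CPM in HU_W, against 2.55 to 5.82 CPM in AMB_W, and edgeR called 0, 0, 3 and 3 of them. Muscle fibre markers summed to 79043 to 85387 CPM in HU_W, against 86174 to 97522 CPM in AMB_W, with 0 of 7 called. The part of either in the Eif4ebp1 values was not tested.

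In HU_ML another gene was called as well. Ppp1r15a had 20.1, 21.7, 18.8 and 13.7 CPM in HU_ML, against 14.9, 11.5, 10.2 and 10.7 CPM in AMB_W, and HU_ML 6 lay inside the AMB_W range (log2 fold change 0.66 ± 0.18 SE, edgeR adjusted p = 0.037). This call was lost without any one of AMB_W 3, 4 and 5 or HU_ML 1, 4 and 5, with adjusted p reaching 0.191. Chac1 averaged 47.5 ± 25.7 CPM in HU_ML and 23.1 ± 3.98 CPM in AMB_W (edgeR adjusted p = 0.0981, DESeq2 adjusted p = 0.0391). Its spread in HU_ML came from HU_ML 4 at 83.2 CPM and HU_ML 5 at 49.5 CPM, beside 28.4 and 29 CPM in HU_ML 1 and 6. HU_ML 4 and 6 were among the libraries over the Alb limit.

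Set against water at the same stage, no gene was called with any of the 3 drinks during unloading. EdgeR called 0 of 10 in HU_ML, HU_L and HU_M against HU_W, 0 had an unadjusted p under 0.05, and DESeq2 and voom called 0. The background was also low, with 0.048%, 0.006% and 0% of tested genes called. For Eif4ebp1, HU_ML minus HU_W was 0.39 on the log2 scale, with a 95% interval of -0.02 to 0.79, and the interval for Atf4 ran from -0.23 to 0.28. In HU_ML all 10 genes had a positive log2 fold change over HU_W, with a median of 0.29 against 0.02 over all genes.

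After 7 d of reloading on water none of the 10 genes was called against AMB_W. EdgeR called 0 of 10 in RL7_W against AMB_W, 0 had an unadjusted p under 0.05, DESeq2 and voom called 0, and 0% of all tested genes were called by edgeR. Eif4ebp1 had 12.8, 10.9, 11.7 and 12.6 CPM in RL7_W, which is 1.57-fold below HU_W with no overlap (log2 fold change -0.65 ± 0.20 SE, edgeR adjusted p = 0.0543, DESeq2 adjusted p = 0.0262). Atf4 fell to 38.4, 44.1, 36.8 and 36.4 CPM in RL7_W, against 53.2, 51.3, 54.1 and 55.7 CPM in HU_W. That drop of 1.38-fold was called (log2 fold change -0.46 ± 0.13 SE, edgeR adjusted p = 0.0258), where 2.9% of all tested genes were called lower and 8.8% were lower without overlap. It was lost without HU_W 3 or 4 or RL7_W 1, 3 or 4, with adjusted p of at most 0.0621, and without the libraries over the Alb limit (adjusted p = 0.124) or with 5.8S rRNA as a covariate (adjusted p = 0.0518).

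After 14 d of reloading on water, 3 of the 10 genes were higher than in AMB_W, where 0.12% of all tested genes were called higher. That share depended on the fit. Without RL14_ML 1 and 6, libraries outside this comparison, 8.07% of all tested genes were called in either direction. DESeq2 called 295 genes and voom 2991 in either direction, against 29 by edgeR with all libraries. Ppp1r15a had 23, 19.1, 26.9 and 19.4 CPM in RL14_W, against 14.9, 11.5, 10.2 and 10.7 CPM in AMB_W. Its mean was 1.87-fold higher (log2 fold change 0.90 ± 0.18 SE, edgeR adjusted p = 0.0279). Eif4ebp1 had 19.6, 22.9, 20.5 and 16.6 CPM in RL14_W, against 10.4, 9.61, 11.8 and 9.22 CPM in AMB_W (1.94-fold, log2 fold change 0.96 ± 0.21 SE, edgeR adjusted p = 0.0442). Atf4 had 56.4, 64.8, 68.9 and 59.9 CPM in RL14_W, against 47.4, 37.4, 41.5 and 40 CPM in AMB_W (1.5-fold, log2 fold change 0.59 ± 0.13 SE, edgeR adjusted p = 0.0442). No libraries overlapped for these 3 genes, for Chac1, which had 30, 33.9, 52 and 32.6 CPM in RL14_W (edgeR adjusted p = 0.278), or for Phgdh, all higher in RL14_W, and 9.5% of all tested genes were higher without overlap. The median log2 fold change of the 10 genes was 0.54, against 0.01 over all genes.

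These RL14_W calls lay near the threshold and coincide with the lowest 5.8S rRNA level. The 5.8S gene averaged 0.717 ± 0.299 CPM in RL14_W and 11.3 ± 3.37 CPM in AMB_W (SD, n = 4). With its log2 CPM as a covariate, the log2 fold changes were 1.23 for Ppp1r15a, 0.43 for Eif4ebp1 and 0.52 for Atf4, and none was called (each adjusted p = 1, rounded). The part of rRNA removal in these differences cannot be told apart from the group. The calls of Eif4ebp1 and Atf4 were lost without any 1 library other than RL14_W 5, with adjusted p reaching 0.199 and 0.222, and that of Atf4 also without the libraries over the Alb limit (0.0514). Both were lost with the adipocyte markers as a covariate (0.0577). The call of Ppp1r15a was lost without AMB_W 3, 4 or 5 or RL14_W 1 or 4, with adjusted p reaching 0.199. Leaving out 1 library at a time gave log2 fold changes of 0.79 to 1.02 for Ppp1r15a. For Eif4ebp1 they were 0.87 to 1.03 and for Atf4 0.53 to 0.65, while 1 to 69 of all genes were called.

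Between 7 and 14 d of reloading on water, Atf4 was higher at 14 d, at 56.4 to 68.9 CPM in RL14_W and 36.4 to 44.1 CPM in RL7_W (1.61-fold, log2 fold change 0.68 ± 0.13 SE, edgeR adjusted p = 0.0133). It was 1 of 5 genes called higher among 16668, which is 0.03%. Without RL14_ML 1 and 6, libraries outside this comparison, 1.55% of all tested genes were called in either direction, and voom called 1371 genes. Ppp1r15a (0.73 ± 0.18 SE, edgeR adjusted p = 0.161, DESeq2 adjusted p = 0.0409) and Eif4ebp1 (0.73 ± 0.20 SE, edgeR adjusted p = 0.249) also had no overlap between RL14_W and RL7_W, as had 5.66% of all tested genes in that direction. The Atf4 call was lost without RL7_W 1, 3 or 4 or RL14_W 3 or 4, with adjusted p reaching 0.141, and without the libraries over the Alb limit (adjusted p = 0.171) or with 5.8S rRNA as a covariate (adjusted p = 0.945). Between RL14_W and HU_W edgeR called 0 of the 10 genes, with 2 at an unadjusted p under 0.05, while DESeq2 called 0 and voom 3. Of all tested genes, 9.72% were called by edgeR and 27.1% by voom, and 26.8% had an unadjusted edgeR p under 0.05.

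Drinks were then compared with water at 14 d of reloading, the stage at which calls were made. Ppp1r15a was lower with each drink. It had 11.5, 10.2, 10.5 and 13.9 CPM in RL14_ML, 16.5, 13.1, 12.2 and 11.2 CPM in RL14_M and 11.6, 11.4, 12.7 and 12.3 CPM in RL14_L, against 23, 19.1, 26.9 and 19.4 CPM in RL14_W. All 12 values lay below the lowest RL14_W library. The log2 fold change was -0.94 ± 0.18 SE in RL14_ML (1.92-fold lower, edgeR adjusted p = 0.00366), -0.74 ± 0.18 in RL14_M (1.67-fold lower, edgeR adjusted p = 0.0175) and -0.88 ± 0.18 in RL14_L (1.85-fold lower, edgeR adjusted p = 0.015). In RL14_ML and RL14_L it was the single one of the 10 genes called, where 0.342% and 0.09% of all tested genes were called lower, and 1.69% and 5.87% were lower without overlap. The call in RL14_ML passed without each single library in turn, with adjusted p of at most 0.0355.

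With metformin alone 3 of the 10 genes were lower at 14 d, where 3.58% of all tested genes were called lower. Atf4 had 38.6, 47, 41.9 and 34 CPM in RL14_M, against 56.4, 64.8, 68.9 and 59.9 CPM in RL14_W (1.55-fold lower, log2 fold change -0.63 ± 0.13 SE, edgeR adjusted p = 0.00583). Eif4ebp1 had 10.1, 13, 11.3 and 10.9 CPM in RL14_M, against 19.6, 22.9, 20.5 and 16.6 CPM in RL14_W (1.76-fold lower, -0.82 ± 0.20 SE, edgeR adjusted p = 0.0202). Neither overlapped, nor did Ppp1r15a, and 10.5% of all tested genes were lower without overlap. Ddit3, which encodes CHOP, a factor tied to cell death under lasting stress, ran the other way: 4, 3.87, 3.76 and 6.16 CPM in RL14_M, against 3.33, 2.74, 1.94 and 3.08 CPM in RL14_W. Those libraries did not overlap, as was so for 7.28% of all tested genes in that direction, and the log2 fold change of 0.68 ± 0.28 SE was not called by edgeR (adjusted p = 0.135) or DESeq2 (adjusted p = 0.0898).

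Leucine and the combination gave like-signed differences for Atf4 and Eif4ebp1 at 14 d that were not called. Atf4 minus RL14_W was -0.43 on the log2 scale in RL14_ML (95% interval -0.69 to -0.17, edgeR adjusted p = 0.112) and -0.43 in RL14_L (-0.68 to -0.17, edgeR adjusted p = 0.105). Eif4ebp1 minus RL14_W was -0.46 in RL14_ML (-0.87 to -0.05, edgeR adjusted p = 0.375) and -0.69 in RL14_L (-1.1 to -0.28, edgeR adjusted p = 0.103). In RL14_L, Atf4 at 44.8 to 49.2 CPM and Eif4ebp1 at 10.9 to 15.3 CPM lay wholly below RL14_W. So did Chac1, with 16, 24.7, 23.4 and 16.4 CPM in RL14_L, against 30, 33.9, 52 and 32.6 CPM in RL14_W (log2 fold change -0.88 ± 0.34 SE, edgeR adjusted p = 0.19), so that with Ppp1r15a 4 of the 10 genes did not overlap. In RL14_ML the libraries were spread widely: Eif4ebp1 had 27, 7.48, 13.1 and 10.1 CPM, Atf4 62, 45.4, 36 and 41.7 CPM, and Chac1 59.7, 30.2, 26.5 and 15.6 CPM. RL14_ML 1 was highest for all 3 genes. RL14_ML 1 and 6 had the lowest and the highest mitochondrial share of counts in their group, 11.4% and 29.2%. RL14_ML 1 also held 7020 CPM of the gene Gm23935, against at most 189 CPM in any other library. RL14_ML 6 had the lowest TMM factor of all libraries, 0.710. Without RL14_ML 1 and 6, edgeR called 3 of the 10 genes in RL14_ML against RL14_W, namely Atf4 (-0.62, adjusted p = 0.00618), Eif4ebp1 (-0.95, adjusted p = 0.00258) and Ppp1r15a (-1.09, adjusted p = 0.00255). This fit kept only RL14_ML 3 and 4 of the group. It left out the highest RL14_ML library for Atf4 and Eif4ebp1, so the calls of these genes are no independent evidence. In that fit 6.74% of all tested genes were called, against 0.714% with all libraries, and with 1 of the 8 libraries left out in turn 29 to 2500 genes were called.

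The 14 d drink comparisons all rest on the same 4 RL14_W libraries. The 5.8S gene averaged 24.4, 18.4 and 19.1 CPM in RL14_ML, RL14_M and RL14_L, against 0.717 CPM in RL14_W, with no overlap between any drink group and water. With 5.8S as a covariate edgeR called 0 of the 10 genes with any drink, and the log2 fold changes of Ppp1r15a were -1.37, -1.13 and -1.28. Those of Atf4 and Eif4ebp1 in RL14_M were -0.55 and -0.18. The rRNA level and the drink cannot be told apart here. The mitochondrial share of counts ran in parallel, at 11.4 to 29.2% in RL14_ML, 17.5 to 27.4% in RL14_M and 14.6 to 23.5% in RL14_L, against 8.31 to 11.7% in RL14_W, and its part was not tested. Adipocyte markers summed to 83.8 to 171 CPM in RL14_M, against 53.3 to 90.2 CPM in RL14_W, and with them as a covariate the RL14_M calls of Eif4ebp1 (adjusted p = 0.0753) and Ppp1r15a (0.0817) were lost. Over all libraries that sum was led by Fabp4. Slow-fibre markers summed to 50.3 to 1368 CPM in RL14_ML, 560 to 1269 CPM in RL14_M and 363 to 1361 CPM in RL14_L, against 3.13 to 555 CPM in RL14_W, with 0 of 5 called. Their median log2 fold change was 0.94, 1.56 and 1.27. Macrophage markers had a median log2 fold change of 0.55, 0.96 and 0.00 in the same order, with 0 of 5 called. Red-cell markers summed to 4.71 to 21.2 CPM in RL14_ML, 8.73 to 58.6 CPM in RL14_M and 8.52 to 13.4 CPM in RL14_L, against 2.59 to 3.99 CPM in RL14_W, with 1, 3 and 0 of 3 called. The part of these cell types was not tested. Against AMB_W the same 3 drink groups had 0 of the 10 genes called by edgeR, DESeq2 or voom, while 2, 0 and 0 had an unadjusted p under 0.05, and 0.12%, 0% and 0% of all tested genes were called. Of all tested genes, 12.3%, 8.02% and 6.06% had an unadjusted edgeR p under 0.05. Ppp1r15a was called lower in RL14_M only while RL14_W 3, RL14_W 4 and RL14_M 6 were all kept (adjusted p up to 0.106), and in RL14_L only with RL14_W 1 and 4 (up to 0.151) and the libraries over the Alb limit (0.106). The call of Eif4ebp1 in RL14_M was lost without RL14_W 3 or 4 or RL14_M 1 or 6 (up to 0.106), and that of Atf4 without RL14_M 6 (0.0564).

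**Figure D2:**
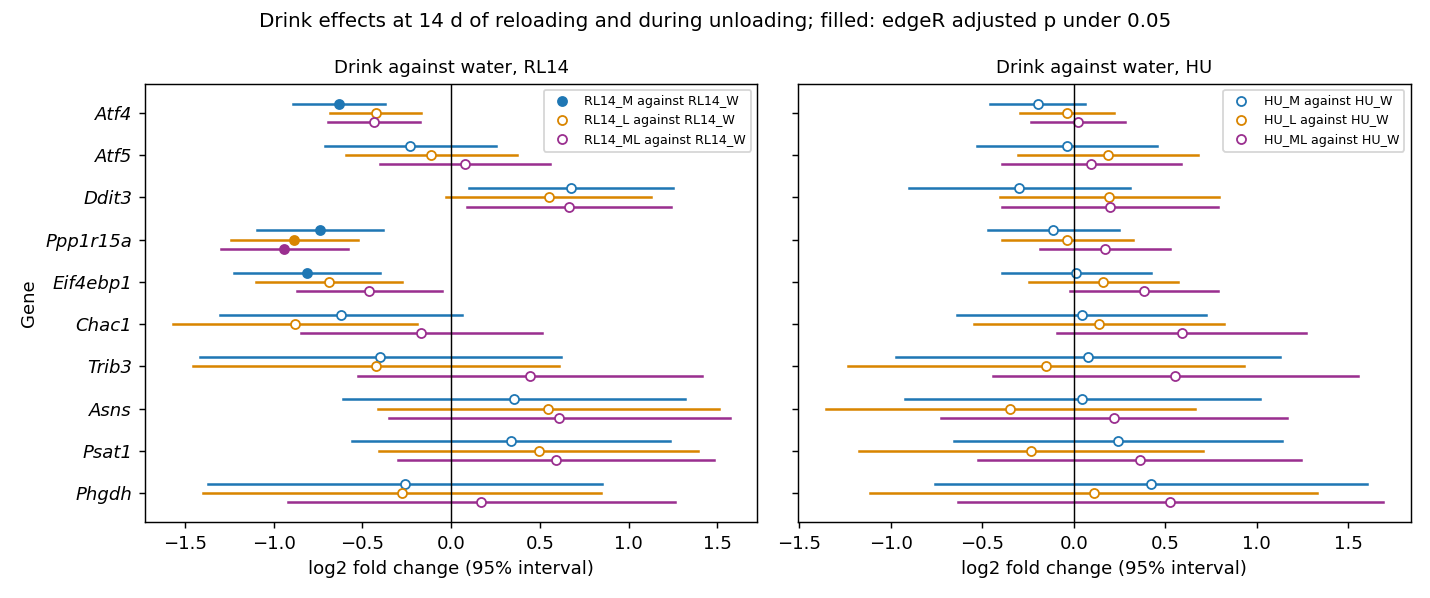
Fitted log2 fold change of each of the 10 genes for ML, M and L against water at RL14 (left) and HU (right), with 95% intervals; filled circles mark edgeR adjusted p under 0.05. Ppp1r15a lay below 0 with all 3 drinks at RL14, from -0.74 to -0.94, and near 0 at HU.

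Whether a drink effect differed between stages was tested with interaction terms. For Ppp1r15a the effect of ML at RL14 was lower than at HU by 1.11 ± 0.25 SE on the log2 scale (edgeR adjusted p = 0.0162), and 0.534% of all tested genes were called lower in this term. The effect itself was -0.94 at RL14 and 0.17 at HU. This call was lost without RL14_W 4 (adjusted p = 0.0611), without the libraries over the Alb limit (adjusted p = 0.0749) and with 5.8S rRNA as a covariate (adjusted p = 0.793). For metformin, RL14 minus HU gave 0 called genes of 10, with 4 at an unadjusted p under 0.05, 0 by DESeq2 and 1 by voom, and leucine gave the same counts. In these terms 0.024% and 0.006% of all tested genes were called by edgeR, and 5.6% and 0.168% by voom, while 11% and 6.01% had an unadjusted edgeR p under 0.05. For RL7 minus HU, edgeR, DESeq2 and voom called 0 of 10 with ML, M and L, with 1, 1 and 0 genes at an unadjusted p under 0.05, and 0.012%, 0.03% and 0.066% of all tested genes were called. Of all tested genes, 2.8%, 9.8% and 8.02% had an unadjusted edgeR p under 0.05.

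A departure from additivity of metformin and leucine was called at 14 d for 2 genes. The term was 1.04 ± 0.29 SE for Eif4ebp1 (edgeR adjusted p = 0.0437) and 0.62 ± 0.18 SE for Atf4 (edgeR adjusted p = 0.0482), a positive term meaning that RL14_ML lay above the sum of the separate effects. In this term 2.66% of all tested genes were called positive. Without RL14_ML 1 it was 0.53 for Eif4ebp1 (adjusted p = 0.483) and 0.43 for Atf4 (adjusted p = 0.438). Both calls were also lost without each of RL14_W 1, 3 and 4, RL14_M 1, 2, 5 and 6 and RL14_L 1, 4 and 5, and with 5.8S rRNA as a covariate (adjusted p = 1, rounded). At HU and RL7 edgeR, DESeq2 and voom called 0 of 10, with 0 and 2 genes at an unadjusted p under 0.05, and 0% and 0.102% of all tested genes were called by edgeR. An unadjusted edgeR p under 0.05 was found for 7.19% and 8.41% of all tested genes.

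The combination was not distinguished from either agent alone. EdgeR, DESeq2 and voom called 0 of 10 genes for ML against M and ML against L at all 3 stages, and 0, 0, 2, 1, 0 and 1 genes had an unadjusted p under 0.05 in HU_ML against HU_M and HU_L, RL7_ML against RL7_M and RL7_L, and RL14_ML against RL14_M and RL14_L. The shares of all tested genes called were 0.15%, 0.096%, 0%, 0%, 0.024% and 0%. Shares with an unadjusted edgeR p under 0.05 were 10.9%, 9.79%, 3.8%, 3.46%, 9.68% and 7.04%. The 95% intervals for Ppp1r15a were -0.56 to 0.16 for RL14_ML against RL14_M and -0.42 to 0.31 for RL14_ML against RL14_L. For Eif4ebp1 they were -0.06 to 0.77 and -0.19 to 0.64, so differences of those sizes cannot be told from 0 with 4 libraries a group.

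**Figure D3:**
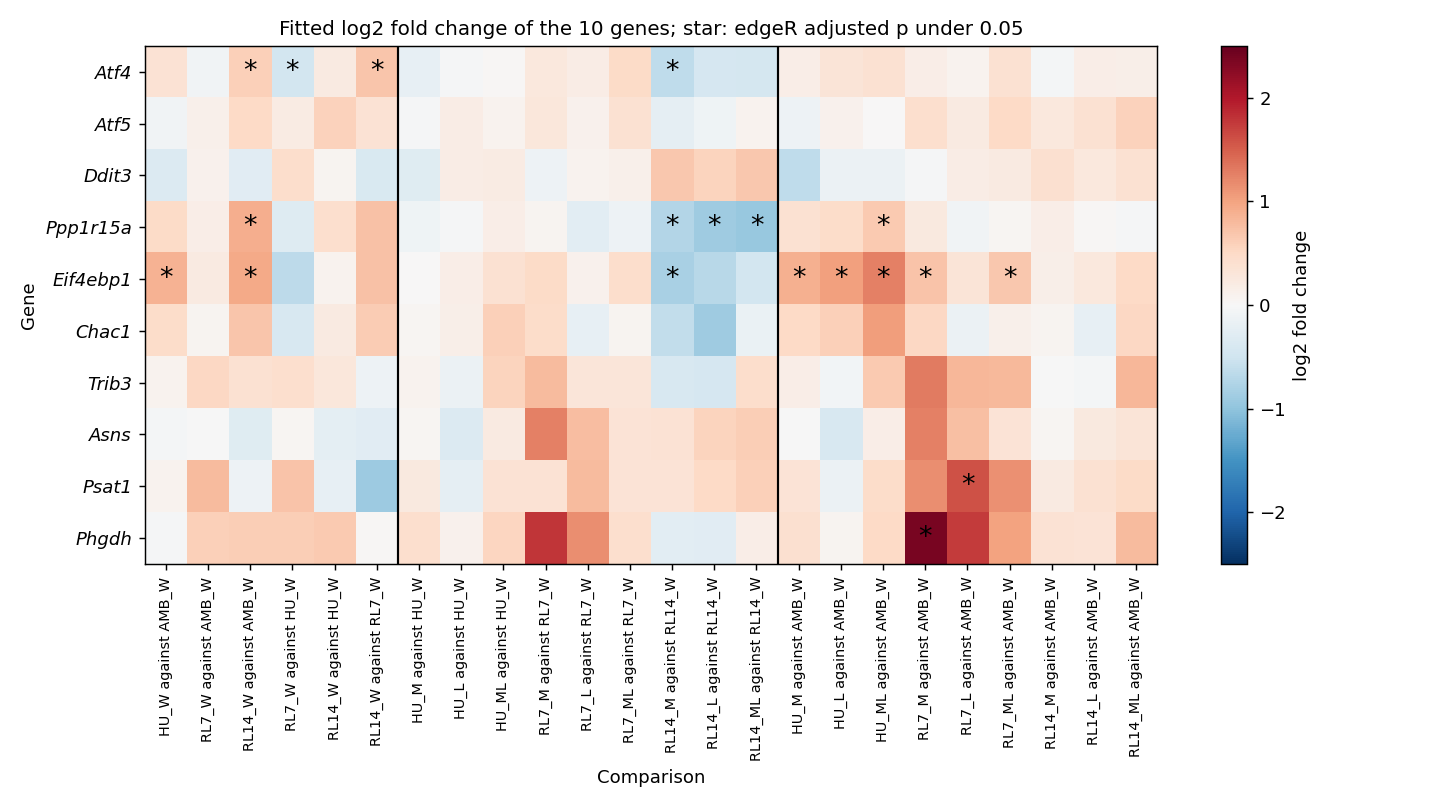
Fitted log2 fold change (colour) of the 10 genes (rows) in the comparisons named under the columns, from left the water groups, each drink against water, and each drink group against AMB_W; stars mark edgeR adjusted p under 0.05. Stars gather on Atf4, Ppp1r15a and Eif4ebp1, with Phgdh in RL7_M and Psat1 in RL7_L against AMB_W as the others.

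At 7 d of reloading the amino acid enzymes had their highest values, in a few libraries. Phgdh encodes the first enzyme of serine synthesis and Psat1 the second, and Asns makes asparagine from aspartate. Phgdh had 1.34, 0.708, 0.757 and 9.74 CPM in RL7_M, against 0.675, 0.4, 0.672 and 0.691 CPM in AMB_W. The groups did not overlap, and the difference was called (log2 fold change 2.37 ± 0.55 SE, edgeR adjusted p = 0.00988), where 5.35% of all tested genes were called higher and 12.1% were higher without overlap, but it was 0.60 without RL7_M 4 (adjusted p = 0.448). Without the libraries over the Alb limit, which leaves RL7_M 3 and 4, it was 3.09 and edgeR called 4 of the 10 genes, Phgdh, Psat1, Asns and Trib3, where 17.4% of all tested genes were called. RL7_M 4 was also highest for Psat1, at 3.79 CPM beside 0.623, 1.01 and 0.92 CPM in RL7_M 1, 2 and 3, and for Asns, at 4.96 CPM beside 0.814, 1.26 and 1.14 CPM.

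RL7_M 4 was the library with the most adipocyte transcript. The 5 markers summed to 524 CPM there, against 62.5 to 66.4 CPM in RL7_M 1, 2 and 3 and 72.1 to 140 CPM in AMB_W. Adipoq and Plin1 were detected in all 52 libraries, and Cidec and Lep were at 0 in 1 and 3 of them. With the summed adipocyte level as a covariate, the log2 fold change of RL7_M over AMB_W was 1.21 for Phgdh (adjusted p = 0.0358), 0.59 for Psat1 (adjusted p = 0.24) and 0.63 for Asns (adjusted p = 0.248). Without the covariate Psat1 (1.16 ± 0.43 SE, adjusted p = 0.0647) and Asns (1.25 ± 0.45 SE, adjusted p = 0.0588) had also missed the threshold, all by edgeR.

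With leucine at 7 d Psat1 was called higher than in AMB_W. Psat1 had 1.29, 2.13, 1.48 and 3.66 CPM in RL7_L, against 0.52, 0.701, 1.01 and 0.634 CPM in AMB_W, and the groups did not overlap (3-fold, log2 fold change 1.58 ± 0.42 SE, edgeR adjusted p = 0.0285). The background was 2.42% of genes called higher and 10.2% higher without overlap. Phgdh had 0.93, 2.73, 1.19 and 3.37 CPM in RL7_L (1.76 ± 0.55 SE over AMB_W, edgeR adjusted p = 0.0513, DESeq2 adjusted p = 0.0258). RL7_L 2 and 5 were highest for Psat1, Phgdh and Asns, had 161 and 160 summed CPM of adipocyte markers, against 74.2 and 73.8 CPM in RL7_L 1 and 3, and exceeded the Alb limit. Without the libraries over that limit Psat1 was at 0.93 (adjusted p = 0.317), while with the adipocyte covariate the call held (adjusted p = 0.0222). The call was also lost without AMB_W 2, 3 or 5 or RL7_L 5, with adjusted p reaching 0.173.

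With both agents the 4 RL7_ML libraries were close together for Psat1, at 1.51, 1.71, 1.43 and 1.65 CPM, all above the highest AMB_W library at 1.01 CPM. The log2 fold change over AMB_W was 1.13 ± 0.43 SE (edgeR adjusted p = 0.0973), and 1.23 with the adipocyte covariate (adjusted p = 0.0257). Their adipocyte markers summed to 64.5 to 98.9 CPM. On water Psat1 was also higher on average at 7 d, with 1.98, 1.33, 1.12 and 0.564 CPM in RL7_W (0.79 ± 0.44 SE over AMB_W, edgeR adjusted p = 0.636).

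**Figure D4:**
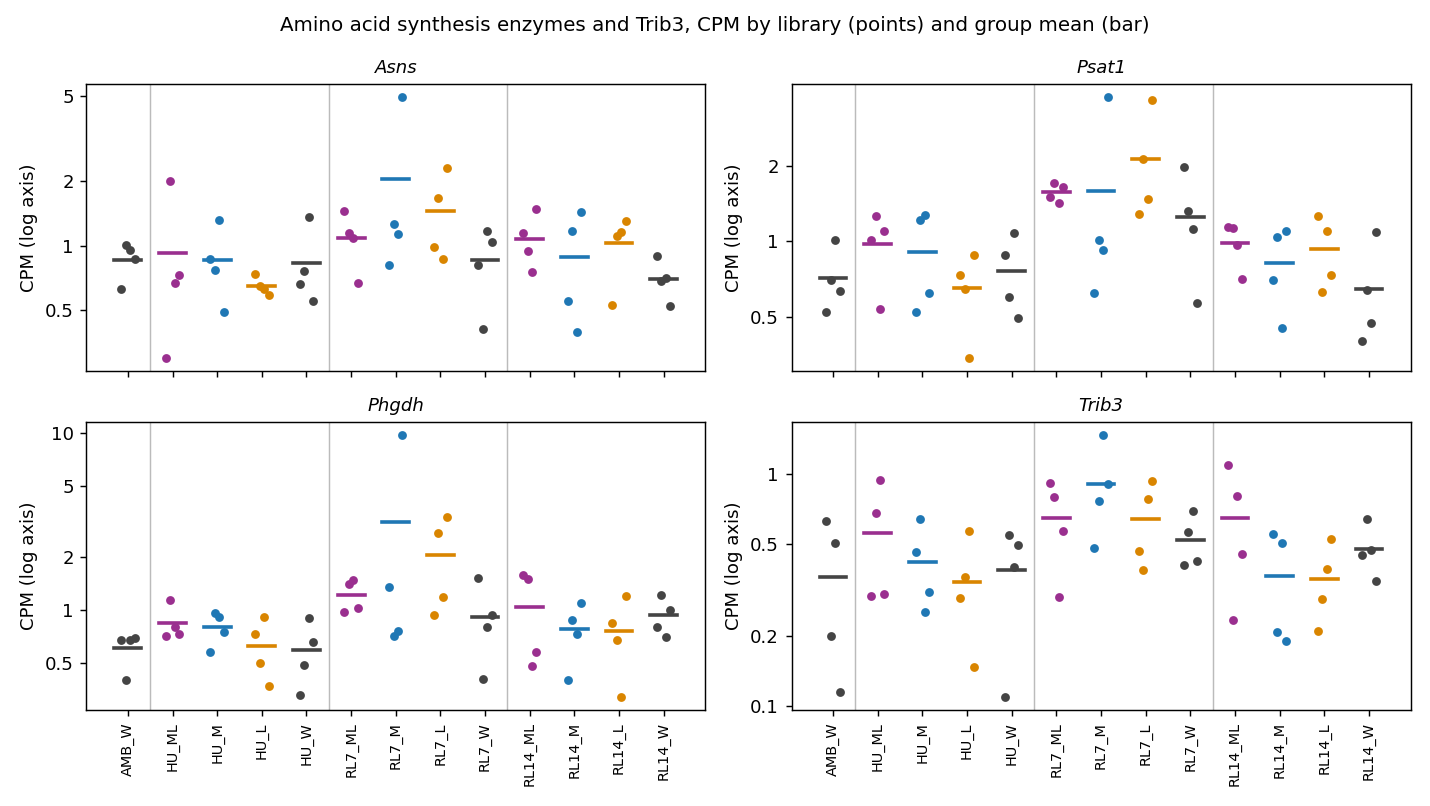
CPM (log axis) of the 3 amino acid enzymes and Trib3 in each of the 52 libraries (points) with group means (bars), coloured by drink (purple ML, blue M, orange L, grey W). The highest points of Phgdh (9.74 CPM), Asns (4.96 CPM) and Psat1 (3.79 CPM) are all RL7_M 4.

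Eif4ebp1 was the other gene called in a 7 d drink group against AMB_W. It had 16.1, 16.6, 15.4 and 19 CPM in RL7_M and 17.6, 16.6, 17.4 and 13.9 CPM in RL7_ML, against 9.22 to 11.8 CPM in AMB_W. Both were called higher by edgeR (0.71 ± 0.21 SE, adjusted p = 0.0257, and 0.67 ± 0.21 SE, adjusted p = 0.0489), and in RL7_ML 2.94% of all tested genes were called higher and 12.9% were higher without overlap. The RL7_ML call was lost without any 1 of the 8 libraries (adjusted p from 0.0703 to 0.143) and that of RL7_M without AMB_W 2, 3 or 5 or RL7_M 4 (up to 0.118) and without the libraries over the Alb limit (0.0519). Against RL7_W, with 10.9 to 12.8 CPM, the RL7_M and RL7_ML libraries of Eif4ebp1 did not overlap, as was so for 5.75% and 6.41% of all tested genes in that direction, and the differences were not called (0.48 ± 0.20 SE, adjusted p = 0.298, and 0.45 ± 0.20 SE, adjusted p = 0.517). In all, edgeR and DESeq2 called 0 of 10 genes in RL7_ML, RL7_M and RL7_L against RL7_W, voom called 1, 0 and 0, and 2, 3 and 1 had an unadjusted p under 0.05. The share of all tested genes called was 0.006%, 0.138% and 0.078% by edgeR, and 3.82%, 2.73% and 0.87% by voom. The share with an unadjusted edgeR p under 0.05 was 9.09%, 13.7% and 9.01%. The 5.8S gene averaged 1.76, 0.903 and 0.77 CPM in RL7_ML, RL7_M and RL7_L, against 4.98 CPM in RL7_W and 11.3 CPM in AMB_W, and with it as a covariate edgeR called 0 of 10 genes in these 3 groups against AMB_W. The log2 fold changes of Eif4ebp1 were then 0.21 in RL7_M and 0.27 in RL7_ML.

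**Figure D5:**
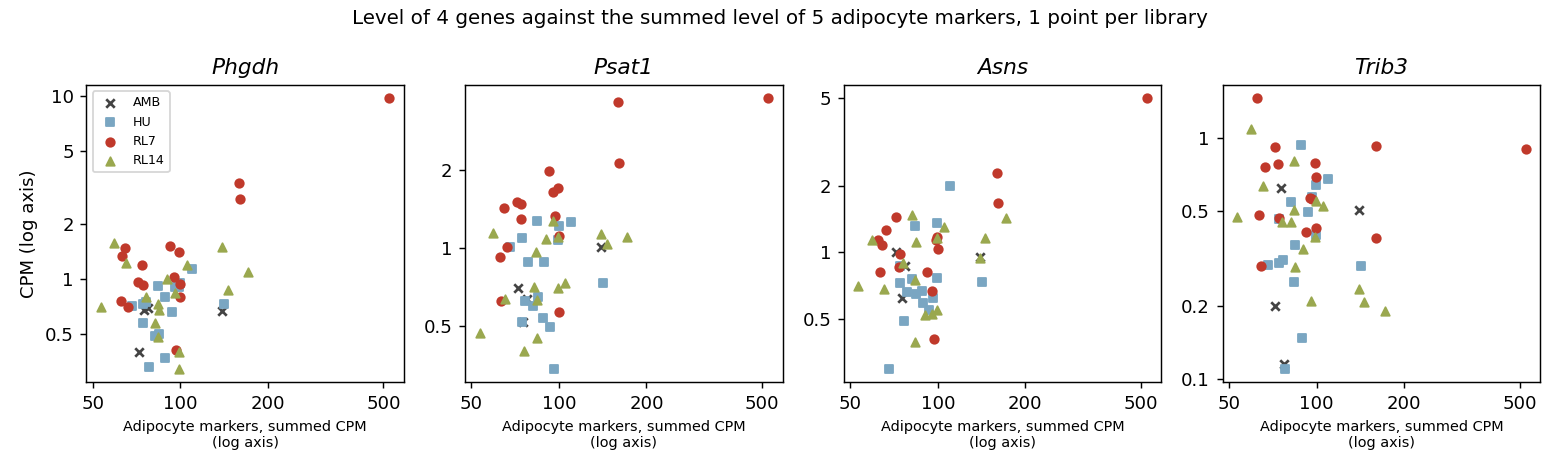
CPM of Phgdh, Psat1, Asns and Trib3 (log axis) against the summed CPM of 5 adipocyte markers (log axis), 1 point per library, by stage. RL7_M 4 lies at 524 summed CPM, and RL7_L 2 and 5 lie at 161 and 160 summed CPM.

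The remaining genes were not called in any comparison. Atf5, a factor close to ATF4 that is likewise controlled by translation, ranged from 12.2 CPM in HU_M to 19.6 CPM in RL14_ML as group means, the last with RL14_ML 1 at 36 CPM beside 19.2, 12.6 and 10.6 CPM. Its smallest edgeR adjusted p was 0.114, in RL14_W against HU_W (0.58 ± 0.24 SE). Ddit3 ranged from 2.15 CPM in HU_M to 4.45 CPM in RL14_M. Trib3, which binds AKT and damps ATF4 activity, had its highest group mean in RL7_M, with 0.479, 0.758, 1.46 and 0.902 CPM, against 0.623, 0.2, 0.504 and 0.115 CPM in AMB_W (1.29 ± 0.49 SE, edgeR adjusted p = 0.0685). When the 13 group means of each gene were ordered, all 12 gaps between neighbours were within the pooled SD of the neighbours for 7 of the 10 genes; 10 of 12 were for Atf4 and 11 of 12 for Chac1 and Eif4ebp1.

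Likeness in pattern was described between the genes. Over the 13 group means of log2 CPM, Pearson r was 0.68 to 0.87 between each pair of Atf4, Ppp1r15a, Eif4ebp1 and Chac1, and 0.72 to 0.90 between each pair of Asns, Psat1, Phgdh and Trib3. Between Atf4 and the 4 genes of the second set r ran from -0.29 to 0.04, and between Atf4 and Ddit3 it was -0.44. These sets were chosen after their values were seen, the group means share libraries with the comparisons above, and r is given as a description. Among libraries of the same group, deviations of Atf4 from its group mean correlated most with those of Atf5 (Pearson r = 0.47, Spearman rho = 0.38, n = 52, permutation p = 0.0119 and 0.022), Eif4ebp1 (r = 0.43, rho = 0.37, permutation p = 0.0504 and 0.0217) and Ppp1r15a (r = 0.38, rho = 0.39, permutation p = 0.0129 and 0.0154). None of the 9 relations passed after adjustment over them (lowest adjusted p = 0.0583 for r and 0.0659 for rho). Without RL14_ML 1 and RL7_ML 1, the libraries farthest from the median of Atf4, r was 0.29 for Atf5, 0.15 for Eif4ebp1 and 0.38 for Ppp1r15a. Within groups, Trib3 had r of 0.06 with Asns, -0.15 with Psat1 and 0.04 with Phgdh, and the enzymes 0.45 to 0.56 with one another. For Chac1 r was 0.13 with Atf4, 0.07 with Ppp1r15a and 0.56 with Eif4ebp1. The RL7_M means of Asns, Psat1 and Phgdh hold the high library RL7_M 4.

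Of 10404 other protein-coding genes above a mean log2 CPM of 1, those whose 13 group means were most like Atf4 were Mylk2, Car11, Foxo4, Spns2 and Atg13, with Pearson r of 0.91 for Mylk2 and 0.89 for Atg13. Most like Eif4ebp1 were Nploc4 (r = 0.96), Slc25a28, Med13l, Brd1 and Zxdc. Most like Asns were Prkar2b (r = 0.93), Cfd, Pygl, Adipoq (r = 0.90) and Npc2. Adipoq is an adipocyte marker and Cfd, adipsin, is made by adipocytes. The highest group mean of Asns, that of RL7_M, holds RL7_M 4 at 4.96 CPM, beside 0.814 to 1.26 CPM in the rest of its group. RL7_M 4 also held 524 summed CPM of adipocyte markers. How far this 1 library sets the likeness was not tested.

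Other genes of the pathway were read from lists, whose members were called in at most 3 genes a list and comparison. Among 7 amino acid transporters under ATF4, Slc7a1 (0.84 ± 0.22 SE, adjusted p = 0.0201) and Slc38a2 (0.70 ± 0.19 SE, adjusted p = 0.026) rose in HU_W over AMB_W. In that comparison 1.95% of all tested genes were called higher. Slc38a2, a carrier of neutral amino acids, averaged 197 CPM in HU_W and 122 CPM in AMB_W, and it fell to 93.2 CPM in RL7_W (-1.08 ± 0.19 SE against HU_W, adjusted p = 0.00017). Among 12 further ATF4 targets, of which 10 were tested, Ddit4 and Cebpb rose in HU_W. Ddit4 encodes REDD1, an inhibitor of mTORC1 that other stress pathways also induce, and averaged 62.6 ± 26.7 CPM in HU_W and 2.01 ± 0.71 CPM in AMB_W (log2 fold change 4.96 ± 0.52 SE, adjusted p = 2.06e-08). It fell again in RL7_W (-4.49 ± 0.50 SE against HU_W), with Cebpb (-1.08) and Cebpg (-0.48), where 2.9% of all tested genes were called lower. In RL14_W against HU_W, where 4.22% of all tested genes were called lower, Ddit4 (-4.20) and Gadd45a (-1.29) were lower. The median log2 fold change in HU_W over AMB_W was 0.47 for the transporters and 0.55 for the further targets, against -0.01 over all genes. In the unloaded drink groups against AMB_W, Ddit4 was higher in all 3 (3.45 in HU_ML, 4.40 in HU_M and 5.00 in HU_L), Slc38a2, Cebpb and Cebpg in HU_M and HU_L, and Slc7a1 in HU_L, all by edgeR. The shares of all tested genes called higher were 1.25% in HU_ML, 2.47% in HU_M and 2.54% in HU_L.

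Of 11 genes of serine, one-carbon and proline metabolism and transamination, Gpt2, which makes alanine from pyruvate, rose in all 4 unloaded groups over AMB_W (0.87 in HU_ML, 0.83 in HU_M, 0.76 in HU_L and 0.80 in HU_W) and fell in RL7_W against HU_W (-1.03 ± 0.20 SE, edgeR adjusted p = 0.000964). The shares of all tested genes called in these directions are those given above. In RL14_W against HU_W, where 5.5% of all tested genes were called higher, Pycr1 (1.44) and Shmt2 (0.64) rose. In RL7_M over AMB_W, Shmt2 (0.53 ± 0.18 SE), the transporter Slc1a5 (1.89 ± 0.52 SE) and Cbs (3.67 ± 1.11 SE) were called higher, Slc1a5 with an SD of 26.1 CPM around a mean of 21.3 CPM in RL7_M. Cbs lay near the floor, at 0.418 ± 0.304 CPM in RL7_M and 0.0284 ± 0.0328 CPM in AMB_W. In this comparison 5.35% of all tested genes were called higher. Of 12 aminoacyl-tRNA synthetases, Yars averaged 16.8 ± 2.07 CPM in RL14_M and 23.6 ± 1.32 CPM in RL14_W (-0.49 ± 0.12 SE, edgeR adjusted p = 0.0164), and was higher in RL14_W than in HU_W (0.50 ± 0.12 SE, edgeR adjusted p = 0.00591). In RL14_M against RL14_W 3.58% of all tested genes were called lower. Eprs was lower in RL7_M (-0.58) and RL7_L (-0.55) than in AMB_W, and Sars in RL7_L (-0.43), where 6.76% of all tested genes were called lower in RL7_M and 1.94% in RL7_L.

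Genes upstream of ATF4 were read in the same way. Of 14 genes for the eIF2 kinases, eIF2, eIF2B and their regulators, 2 were called in 1 of the 30 comparisons: Eif2s2, the beta subunit of eIF2 (-0.93 ± 0.26 SE, edgeR adjusted p = 0.0217), and Impact, an inhibitor of the kinase GCN2 (-0.39 ± 0.13 SE, edgeR adjusted p = 0.0446), were lower in RL7_M than in AMB_W. Eif2s2 averaged 74.1 ± 31.2 CPM in RL7_M and 141 ± 6.69 CPM in AMB_W. In that comparison 6.76% of all tested genes were called lower, so these counts are no result about the list. Of 11 genes of the ATF6 and XBP1 branches 1 was called, the chaperone gene Hsp90b1, at 82 ± 22.8 CPM in RL7_M and 132 ± 10.3 CPM in AMB_W (-0.69 ± 0.21 SE, edgeR adjusted p = 0.0294). Of 4 further genes of eIF4E and its partners, 3 of them tested, the scaffold gene Eif4g1 was lower in RL14_M than in RL14_W (-0.35 ± 0.09 SE, edgeR adjusted p = 0.0235). There 3.58% of all tested genes were called lower. The lists are no independent evidence of a direction, since they were chosen with results of these data known.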

How the data were processed

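RNA was measured in 52 gastrocnemius libraries made from total RNA with a stranded kit and rRNA removal, per the labels' protocols. Per the submitters' processing notes the tools include STAR 2.7.3a, featureCounts 1.6.3 and DESeq2 1.30.0 with GRCm38; the annotation release and whether counting used strand are not given in the sources used here. The values used are raw counts per gene as deposited by the authors, in 1 table, with group and replicate read from its column names. Gene names came from GENCODE vM21, which matched 55227 of 55487 IDs. From those counts, genes were kept by edgeR's filter (minimum count 10) and tested with its quasi-likelihood test on TMM factors in 1 fit over all 13 groups (39 residual degrees of freedom), with Benjamini-Hochberg adjustment over 16668 genes in each of 30 comparisons and 9 interaction terms. Calls are adjusted p under 0.05, SD is over 4 libraries, and SE and 95% intervals come from that fit. The labels do not say that each library is 1 mouse, so p-values measure the spread between these libraries. DESeq2 1.42.0 and limma 3.58.1 (voom with quality weights) were alternatives, beside edgeR 4.0.16, in R 4.3.3. The other alternatives were RLE factors, no filter, a replicate block, only the groups compared, leaving out libraries, and 5.8S rRNA or adipocyte markers as a covariate, the last chosen after seeing the data. Libraries held 15605044 to 32492548 counts, and the SE of log2 fold changes had a median of 0.23 over all genes in each comparison of groups. Permutation tests for correlations drew 100000 resamples within groups, two-sided. No 2 libraries of a group agreed within sampling noise (lowest chi-square per degree of freedom 8.03 over 78 pairs). The scripts were tested on simulated data, with changes planted in genes of a mean log2 CPM of at least 1. For RL14_W against AMB_W, 29.9% of 1.5-fold and 74.6% of 2-fold changes were recovered. For RL7_M against RL7_W the shares were 34.3% and 71.6%, so a gene not called may still differ by such a fold. The 10 genes and the lists were chosen with earlier results of these data known. All 10 genes were named by rule, and of each list the called genes, at most 4 a comparison.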

Additional observations from a re-analysis of the deposited data

Results flagged for a closer look

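In 8 of the 130 sets of 4 libraries (10 genes in 13 groups), 1 library stood far from the other 3 by Dixon's 95% criterion, where chance gives about 1 in 20. RL7_M 4 was the high library for Phgdh (9.74 CPM beside 0.708 to 1.34 CPM), Asns (4.96 CPM beside 0.814 to 1.26 CPM) and Psat1 (3.79 CPM beside 0.623 to 1.01 CPM), and it also held the most adipocyte transcript. Ddit3 was high in RL14_M 6 (6.16 CPM beside 3.76 to 4.00 CPM) and in RL14_L 5 (6.41 CPM beside 3.17 to 3.44 CPM). RL14_L 5 had 814 CPM of Alb and RL14_M 6 the highest adipocyte sum of its group, 171 CPM, and their part was not tested. Chac1 was high in HU_M 3 (57.4 CPM beside 23.1 to 26 CPM) and Eif4ebp1 in RL14_L 2 (15.3 CPM beside 10.9 to 11.6 CPM). Phgdh was low in AMB_W 3 (0.400 CPM beside 0.672 to 0.691 CPM).

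Effects that differed between groups by their own test were 3. The effect of both agents on Ppp1r15a was lower at 14 d of reloading than during unloading by 1.11 on the log2 scale (log2 difference -1.11). In this term 0.534% of all tested genes were called lower. The Ppp1r15a call was lost without RL14_W 4 (edgeR adjusted p = 0.0611), without the libraries over the Alb limit and with the rRNA level as a covariate. The departure from additivity of metformin and leucine at 14 d was 0.62 for Atf4 and 1.04 for Eif4ebp1, where 2.66% of all tested genes were called positive. Leaving out 1 library at a time, each of these calls was lost in 11 of 16 fits. Without RL14_ML 1 the edgeR adjusted p was 0.438 for Atf4 and 0.483 for Eif4ebp1. Both calls were also lost with the rRNA level as a covariate.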

How the results depend on the processing

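Counts here are of the 10 genes called by edgeR unless another tool is named. A count without the share of all genes in its comparison is no result about the 10 genes. Of the 22 called values, none changed sign under the 10 other settings, and 22 kept their call with DESeq2, 20 with voom, 20 with the replicate block, 20 without RL14_ML 1 and 6, 19 with RLE factors, 17 with only the groups compared, 16 with the adipocyte covariate, 14 with no filter, 10 without the libraries over the Alb limit and 5 with the 5.8S covariate. Those 5 were Eif4ebp1 in all 4 unloaded groups and Ppp1r15a in HU_ML against AMB_W. Where a call was lost the cause was not tested. Over the 39 comparisons and terms, the share of all genes called ran up to 27.1% with voom, 27% with only the groups compared, 21.1% without RL14_ML 1 and 6, 20.5% with DESeq2, 17.4% without the libraries over the Alb limit, 12.3% with RLE factors, 12.2% with the adipocyte covariate, 10.5% with the replicate block, 3.73% with the 5.8S covariate and 2.27% with no filter. With voom, which called 7.86 to 9.63% of all genes in the unloaded groups, 23.5% in RL7_L and 27% in RL7_ML against AMB_W, and 23.7%, 8.17% and 18.3% in RL14_M, RL14_L and RL14_ML against RL14_W, the counts were 3 in HU_W, 2 in HU_L, 4 in HU_ML, 2 in RL7_L and 5 in RL7_ML against AMB_W, 2 in RL7_W and 3 in RL14_W against HU_W, 3 in RL14_W against RL7_W, 1 in RL7_ML against RL7_W, 5, 4 and 3 in RL14_M, RL14_L and RL14_ML against RL14_W, and 1, 1, 4 and 1 for the terms of M, L and ML (RL14 minus HU) and for additivity at RL14. Of all 16668 genes, voom called 2778 in RL7_W and 4519 in RL14_W against HU_W. It called 1371 in RL14_W and 637 in RL7_ML against RL7_W, and 933, 28, 3135 and 651 for the terms in the same order. With only the groups compared they were 4 in HU_W, 2 in HU_L, 1 in RL7_M, 3 in RL7_L and 5 in RL7_ML against AMB_W, 2 in RL7_W and 1 in RL14_W against HU_W, 3 in RL14_W against RL7_W, 1 in RL7_ML against RL7_W, 3 in RL14_L and 0 in RL14_ML against RL14_W, and 1, 0 and 0 for the terms of M, ML and additivity. Up to 27% of all genes were called in a comparison of this setting, so these counts are no result about the 10 genes. Without RL14_ML 1 and 6 they were 2 in RL7_W and 1 in RL14_W against HU_W, 3 in RL14_W against RL7_W, 1 each in RL7_M and RL7_ML against RL7_W, 3 each in RL14_L and RL14_ML against RL14_W, 2 each in RL7_L and RL7_ML against AMB_W, and 3 and 0 for the terms of ML and additivity. In the same order, the shares of all genes called were 7.77%, 16.8%, 1.55%, 3.64%, 0.619%, 6.37%, 6.74%, 16.2%, 15.3%, 8.33% and 0.0917%. Without the libraries over the Alb limit they were 0 in HU_W, 1 in HU_ML, 4 in RL7_M, and 0 in RL7_L and RL7_ML against AMB_W, 0 in RL7_W against HU_W, in RL14_W against RL7_W and in RL14_L against RL14_W, 2 in RL7_M against RL7_W, and 0 for both terms. In the same order, the shares of all genes called were 0.723%, 0.399%, 17.4%, 0.123%, 3.86%, 1.46%, 0.00587%, 0.0999%, 1.13%, and 0.875% and 0.0176% for the terms of ML and additivity. With the 5.8S covariate the count was 0 in RL14_W, RL7_M, RL7_L and RL7_ML against AMB_W, in RL14_W against RL7_W, in all 3 drink groups against RL14_W and for both terms. In these, 0% to 0.024% of all genes were called. With the adipocyte covariate it was 1 in RL14_W and 2 in RL7_L and RL7_ML against AMB_W, 1 in RL14_M against RL14_W and 0 for additivity. With no filter it was 1 in RL14_W, 1 in RL7_M and 0 in RL7_ML against AMB_W, 0 in RL7_W against HU_W and 0 for additivity, and with RLE factors 2 in RL7_W against HU_W, 0 in RL7_ML against AMB_W and 0 for additivity. The shares of all genes called were 0.00551%, 2.27%, 0.664%, 1.26% and 0.116% with no filter. With RLE factors they were 5.05%, 4.72% and 1.48%. DESeq2 called 2 in RL7_W against HU_W, in RL14_W against RL7_W and in RL7_L against AMB_W, where it called 1150, 35 and 1426 of all 16668 genes. The replicate block gave 2 in RL7_W against HU_W, 4 in HU_ML and 2 in RL7_ML against AMB_W, and 1 for additivity. The shares of all genes called were 5.14%, 2.31%, 5.31% and 1.69%. Replicate numbers did not pair the libraries: over 219 same-numbered pairs the mean correlation of deviations was 0.0107, 47 exceeded 0.1, and 11 of 52 libraries correlated best with their own number. Leaving out 1 library at a time, the count ran between 0 and 3 in RL14_W against AMB_W, RL14_M against RL14_W and the terms of ML and additivity at RL14, 0 and 1 in RL7_W against HU_W, RL14_W against RL7_W, RL14_L against RL14_W and HU_M against AMB_W, 1 and 3 in RL14_ML against RL14_W, 1 and 2 in HU_ML, 0 and 5 in RL7_M, and 0 and 2 in RL7_L against AMB_W. It was 1 throughout in HU_W and HU_L and 0 throughout in RL7_ML against AMB_W, and 0 in the other comparisons. Calls over all genes moved as well, from 1 to 69 in RL14_W and 65 to 2294 in RL7_M against AMB_W. Against RL14_W they ran from 41 to 955 in RL14_M and from 29 to 2500 in RL14_ML. The within-group correlation of Atf4 with Ddit3 was -0.0907 without the libraries over the Alb limit, against 0.00315 with all, and the correlation of Atf4 with Chac1 was -0.0544 without RL14_ML 1 and 6, against 0.13. Over all genes, DESeq2 called 295 and edgeR 29 in RL14_W against AMB_W, and 188 and 49 in RL14_L against RL14_W, and voom called 1384 and edgeR 464 in HU_W against AMB_W, and 3952 and 853 in RL14_M against RL14_W. Depth limits Trib3, Asns, Psat1 and Phgdh most, with as few as 2 to 6 counts in a library.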
